A study of Mus musculus with 40 samples.

Results

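Satellite repeats were followed in RNA from mouse embryonic stem (mES) cells, and from the epiblast-like cells (EpiLCs) they give rise to, that lacked lamins, the lamin B receptor (LBR) or both. Members were chosen by name alone: each of the 8 repeat families that the deposited table files under the class Satellite, of 1243 transposable element (TE) and other repeat families in that table, together with the 37228 annotated copies of these families, of 3799629 single copies in all. The 8 families were GSAT_MM, SYNREP_MM, CENSAT_MC, MurSAT1, MMSAT4, IMPB_01, ZP3AR and CYRA11_Mm. Enough reads for a test were found for 7 of them, of 1142 tested repeat families, and for 491 single copies, of 131824 tested. CENSAT_MC held 3 counts over all 40 libraries and was not tested.

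The 40 libraries were made from ribosome-depleted, stranded total RNA of 4 genotypes at 2 stages, with 8 libraries for each WT group and 4 for each mutant group. The mES cells were kept naive in serum-free medium with LIF, 3 μM CHIR-99021 (a GSK3 inhibitor) and 1 μM PD0325901 (a MEK inhibitor), and EpiLCs were made from them with FGF (20 ng/mL) and Activin A (12 ng/mL). Both were collected after 48 h. TKO cells carried deletions of all 3 lamin genes (Lmna, Lmnb1 and Lmnb2) and came from 1 mouse line with a WT littermate line as control. LBRKO cells were made from WT cells with Cas9 and 1 guide to Lbr, and QKO cells, which lack lamins and LBR, were the 1 clone that survived the same targeting of TKO cells. Genotype and line or clone therefore cannot be told apart, and it is not given which LBRKO clone or clones were sequenced. Karyotyping had found an extra chromosome 8 in TKO cells and loss of the Y chromosome in part of the TKO and WT cells, and a minor population of the WT cells also had extra chromosomes 6 and 8. Replicates were separate wells, of 1 line or clone in WT, TKO and QKO, so p-values there measure the spread between wells. For LBRKO it is not known whether the wells came from 1 clone.

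Satellites are DNA repeats named for their head-to-tail arrays. In the mouse, the major (gamma) satellite fills the heterochromatin beside the centromere, and the minor satellite lies under the centromere itself, where the protein CENP-B binds a short box in each repeat unit. These arrays are packed with methylated H3K9 and HP1, gather in chromocentres that often sit at the nucleolus or the nuclear lamina, and are transcribed at low levels that change with the cell cycle, stress and development. The class also takes in interspersed tandem repeats that are not centromeric and often lie inside genes.

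The sequences show how unlike the families are. GSAT_MM, the major satellite, was represented by 91 copies with a GC content of 35.9%, and its longest copy (46537 bases) resembled itself best when shifted by 234 bases, with 72.7% identity. The copy with the most reads lay on an unplaced scaffold without annotated genes (JH584304.1:60179-60873, plus strand, GRCm39), and its first 300 bases are shown with its most frequent word of 10 letters, found 3 times, in capitals.

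GSAT_MM_dup83: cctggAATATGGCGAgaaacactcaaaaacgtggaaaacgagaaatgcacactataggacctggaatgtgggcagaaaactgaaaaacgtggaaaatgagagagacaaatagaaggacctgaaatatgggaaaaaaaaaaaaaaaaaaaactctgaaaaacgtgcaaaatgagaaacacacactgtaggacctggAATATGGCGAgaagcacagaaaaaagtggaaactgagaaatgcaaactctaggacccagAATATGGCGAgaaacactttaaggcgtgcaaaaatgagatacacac

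SYNREP_MM had 28 copies, and the core of the CENP-B box (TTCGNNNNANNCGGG, both strands searched) was found in 4 of them (14.3%), which held 67.7% of the reads of the family. In windows of the same lengths 20 kb away, 0 of 28 held it, as did 0 of the copies of the other families except 1 of 91 GSAT_MM copies. The copy with the most reads, SYNREP_MM_dup6, lay in an intron of Chl1, a neural adhesion molecule (chr6:103626009-103626278, minus strand, GRCm39), and is shown with the box core in capitals because it ties the family to centromeric sequence.

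SYNREP_MM_dup6: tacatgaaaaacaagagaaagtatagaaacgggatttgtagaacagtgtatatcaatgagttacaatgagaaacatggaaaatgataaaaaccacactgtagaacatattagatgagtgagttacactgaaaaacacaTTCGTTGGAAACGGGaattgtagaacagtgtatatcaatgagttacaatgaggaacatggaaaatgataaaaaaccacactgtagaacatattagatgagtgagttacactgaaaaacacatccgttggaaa

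MMSAT4, in contrast, was largely a repeat of zinc-finger genes. The linker that joins neighbouring C2H2 zinc fingers has a coding sequence close to ACNGGNGANAANCC, and these letters stood in 332 of 625 MMSAT4 copies (53.1%), in 3 of 619 neighbouring windows (0.48%) and in no copy of another satellite family. The longest copy repeated itself best at a shift of 252 bases (87.8% identity), which is a whole number of codons. Copies with these letters held 47.8% of MMSAT4 reads. The copy shown was picked as the most read one that lay wholly in coding sequence and held the linker. MMSAT4_dup110, with more reads (24277), did not hold it. The copy shown lay within the coding exon of the zinc-finger gene Zfp553 (chr7:126834747-126834863, plus strand, GRCm39). It held 18932 reads over all libraries and is printed with the linker in capitals.

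MMSAT4_dup340: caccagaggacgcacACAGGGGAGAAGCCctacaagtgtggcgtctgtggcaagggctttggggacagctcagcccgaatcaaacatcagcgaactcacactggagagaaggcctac

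IMPB_01 copies were short (median 89 bases) and numerous (23814 copies), and ZP3AR copies were the richest in GC (59.0%). The IMPB_01 copy shown is part of the most read copy of the family on the Y chromosome, where its changes in the mutants were largest, in an intron of the predicted gene Gm57952 near the end of the Y chromosome (chrY:90747054-90747353, minus strand, GRCm39), with its most frequent word of 10 letters, found 9 times, in capitals.

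IMPB_01_dup13890: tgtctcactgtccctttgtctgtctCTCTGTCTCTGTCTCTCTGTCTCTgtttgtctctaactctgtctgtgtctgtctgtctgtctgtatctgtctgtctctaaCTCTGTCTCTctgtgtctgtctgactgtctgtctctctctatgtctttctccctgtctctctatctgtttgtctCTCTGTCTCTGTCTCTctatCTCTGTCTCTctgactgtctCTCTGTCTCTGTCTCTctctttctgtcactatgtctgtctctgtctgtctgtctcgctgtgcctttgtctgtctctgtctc

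Most MurSAT1 copies (5118 of 5816) lay on the Y chromosome, but 92.9% of its 226 uniquely mapped reads lay on the 604 copies of the X chromosome. The most read copy, at least 10 kb from any gene, is shown in full with no part in capitals (chrX:21789253-21789503, plus strand, GRCm39).

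MurSAT1_dup2: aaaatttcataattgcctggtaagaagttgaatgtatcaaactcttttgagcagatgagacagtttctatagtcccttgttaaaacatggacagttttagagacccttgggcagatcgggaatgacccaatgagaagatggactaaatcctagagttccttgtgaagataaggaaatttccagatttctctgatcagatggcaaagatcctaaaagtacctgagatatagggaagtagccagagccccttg

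Levels were low and unequal between families. Over all libraries MMSAT4 gave 198672 counts (39.4% of all satellite counts), IMPB_01 154575 (30.7%), ZP3AR 89147 (17.7%), CYRA11_Mm 52643 (10.5%), GSAT_MM 7179 (1.43%), SYNREP_MM 1441 (0.286%) and MurSAT1 260 (0.0516%). These counts came from a table that kept reads with up to 100 mapping positions, so reads that fit more positions, as those of long identical arrays can, were not counted. Values are given as CPM, read counts relative to the size of the library, with sizes scaled by TMM. Gene counts per library ranged from 22.6 M to 48.9 M.

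Satellites made up 0.0254% ± 0.00291 (SD, n = 8) of all counts in WT mES cells, 0.0258% ± 0.000892 in LBRKO, 0.0352% ± 0.00255 in TKO and 0.0465% ± 0.00306 in QKO mES cells (n = 4 each). In EpiLCs the shares were 0.0222% ± 0.00340 in WT, 0.0260% ± 0.00680 in LBRKO, 0.0266% ± 0.000895 in TKO and 0.0527% ± 0.00617 in QKO. The QKO share was 1.83 times that of WT in mES cells and 2.37 times in EpiLCs, and no QKO library overlapped with a WT library. In a two-sided exact permutation test, the differences of QKO from WT at both stages and of TKO from WT in mES cells had p = 0.00202, the smallest that 4 against 8 libraries allow (adjusted p = 0.00606 over 9 comparisons). The TKO difference did not pass with uniquely mapped reads (adjusted p = 0.131) or without MMSAT4 (0.127), where it was 0.00263 percentage points instead of 0.00972. TKO EpiLCs overlapped with WT EpiLCs (exact permutation p = 0.0404, adjusted 0.0606), and LBRKO did not differ beyond the spread at either stage (adjusted p = 0.804 in mES cells and 0.261 in EpiLCs). QKO and TKO libraries did not overlap, but 4 against 4 libraries cannot give an exact p below 0.0286 (adjusted 0.0514 at both stages). The same counts over all repeat families rose from 7.60% ± 0.966 of counts in WT to 12.6% ± 1.00 in QKO mES cells and from 8.51% ± 0.985 to 13.9% ± 0.299 in EpiLCs.

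**Figure D1:**
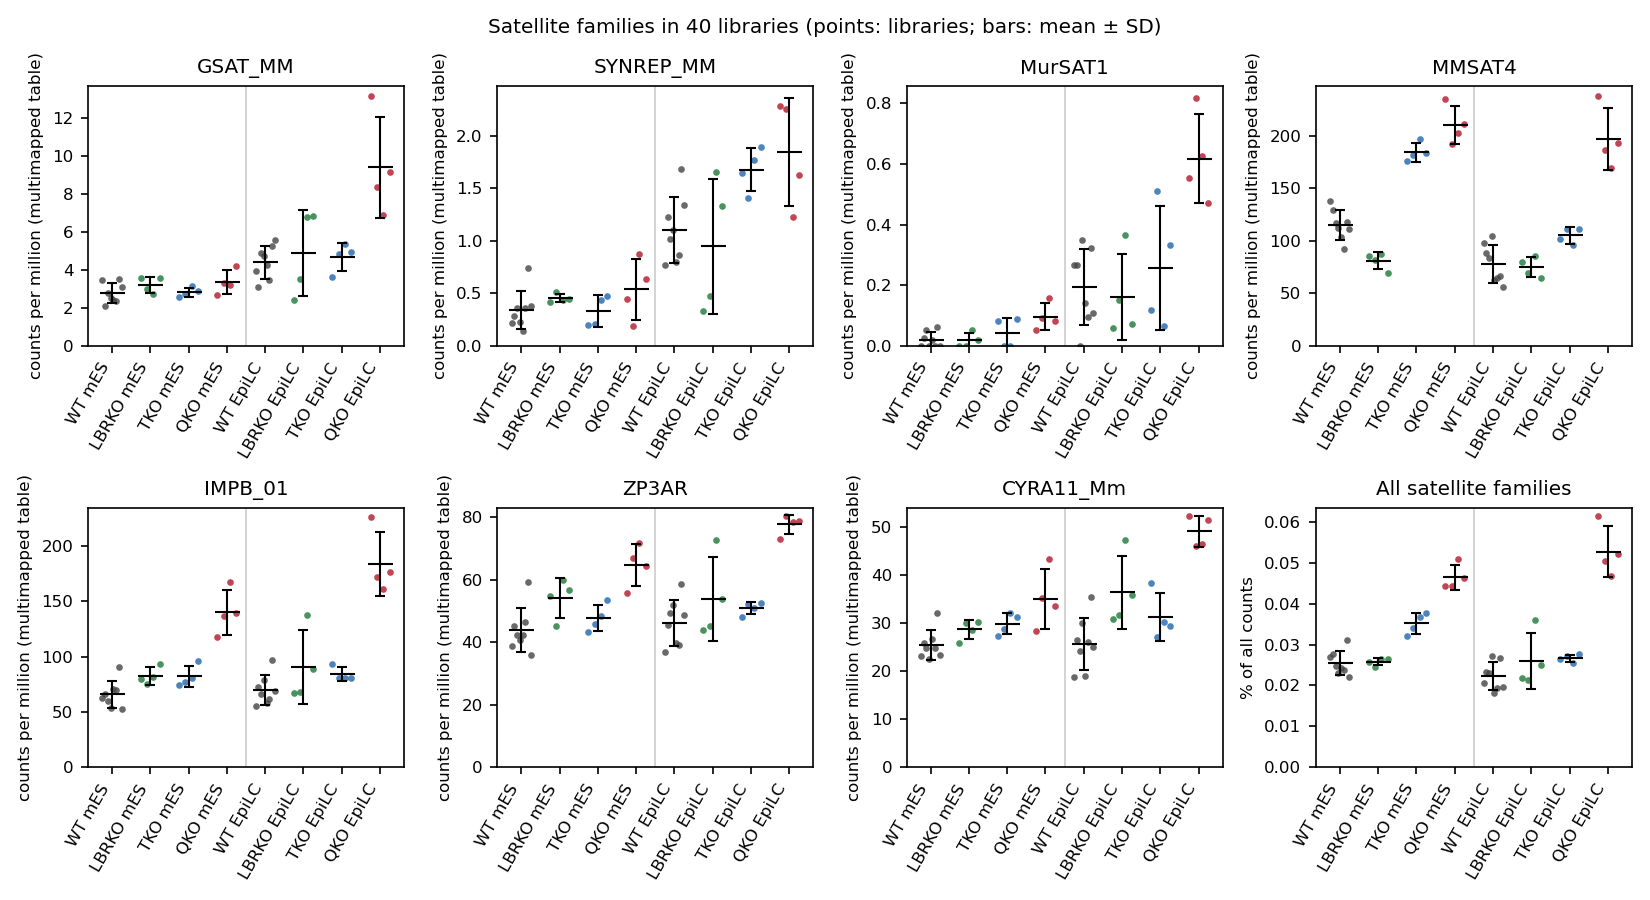
Each panel plots 1 satellite family in CPM, and the last panel all satellite families as a percent of counts, for the 8 groups on a linear axis from 0; points are libraries, and bars the mean and SD (n = 8 for WT, n = 4 for mutants). QKO EpiLCs stood above all WT EpiLCs in every family except SYNREP_MM, and SYNREP_MM was higher in all 8 WT EpiLC libraries (0.769 to 1.69 CPM) than in the 8 WT mES libraries (0.142 to 0.735 CPM).

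The targeted genes followed the labels only in part. Lmnb1 fell from a mean of 437 CPM in WT mES cells to 6.99 in TKO and 11.2 in QKO, and Lmnb2 from 89.2 to 3.55 and 2.08 CPM, whereas Lmna kept 13.2 and 15.5 CPM of 49.0. Lbr, which was disrupted by small indels rather than removed, still gave 178 CPM in the mES cells of LBRKO and 203 CPM in those of QKO, against 330 CPM in WT. Naive marker genes summed to between 2767 and 3940 CPM in every mES library and to at most 250 CPM in EpiLCs, and primed marker genes to at most 179 and at least 1898 CPM. WT replicates 5 to 8 and the LBRKO libraries were sequenced more deeply (39.4 to 48.9 M gene counts) than WT replicates 1 to 4, TKO and QKO (22.6 to 33.6 M). One WT mES library, replicate 7, was the highest of its group in 6 of the 7 tested families, all except MMSAT4.

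Reads from outside genes moved with some of the groups. Copies of the old repeats L2 and MIR at least 50 kb from any gene, a measure of background reads, summed to 1.93 ± 0.781 CPM in WT, 2.23 ± 0.565 in LBRKO, 3.73 ± 0.314 in TKO and 7.51 ± 2.12 in QKO mES cells. In EpiLCs they summed to 2.43 ± 0.549 CPM in WT, 2.24 ± 0.944 in LBRKO, 2.08 ± 0.432 in TKO and 4.56 in QKO (3.71 to 4.89). The QKO level was thus 3.89 times WT in mES cells and 1.88 times WT in EpiLCs, and the part of such reads in the satellite changes was not tested.

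Changes of families were tested with edgeR's quasi-likelihood test over all genes and repeat families together, and a family is named called when its adjusted p was under 0.05 and its change over 2-fold. The first question was what loss of both lamins and LBR does to satellite RNA. In QKO mES cells 2 of 7 tested families were called up, IMPB_01 and MurSAT1, and none down (25.1% of all tested repeat families were called up, and 15.8% of genes were called in either direction). In QKO EpiLCs 4 of 7 were called up, GSAT_MM, IMPB_01, MMSAT4 and MurSAT1, and none down (26% of all repeat families up, 19.8% of genes in either direction). The median log2 change of the 7 families was 0.64 in mES cells, below the 0.82 of all tested repeat families, and 1.09 in EpiLCs, above their 0.85. Calls on 2 of 7 families are a share close to that of all repeat families, and on 4 of 7 a larger one, in a class of few members.

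The major satellite GSAT_MM was called in QKO EpiLCs. The 4 QKO EpiLC libraries had 13.1, 8.38, 6.90 and 9.17 CPM, while WT EpiLCs ranged from 3.10 to 5.60 CPM, TKO EpiLCs had 3.60, 4.82, 5.36 and 4.93 CPM, and LBRKO EpiLCs had 2.42, 3.53, 6.81 and 6.85 CPM. All QKO libraries lay above every WT, TKO and LBRKO library, although the lowest QKO library (6.90 CPM) was close to the highest LBRKO library (6.85 CPM). The log2 change was 1.09 ± 0.19 (SE) against WT (adjusted p = 6.63e-06) and 1.00 ± 0.23 against TKO (adjusted p = 4.78e-04). Without QKO EpiLC replicate 1 these changes were 0.93 and 0.83, and without TKO EpiLC replicate 1 the second was 0.92, all past the adjusted p but under 2-fold. In mES cells the QKO libraries (2.69, 3.33, 3.19 and 4.21 CPM) overlapped with WT (2.09 to 3.51 CPM), with a log2 change of 0.27 ± 0.20 (adjusted p = 0.288). The change in EpiLCs was larger than that in mES cells by 0.82 (interaction, adjusted p = 0.0272).

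IMPB_01 rose in QKO cells at both stages. QKO mES libraries had 118, 137, 167 and 139 CPM against 52.3 to 90.6 CPM in WT, and QKO EpiLC libraries had 226, 172, 161 and 176 CPM against 55.7 to 97.2 CPM in WT. QKO and WT did not overlap at either stage. The log2 changes were 1.09 ± 0.14 (adjusted p = 4.69e-08) and 1.39 ± 0.14 (adjusted p = 1.12e-10), and against WT replicates 5 to 8 alone the first was 0.98 and missed the fold limit. Against TKO the change was 0.77 ± 0.17 in mES cells and 1.13 ± 0.17 in EpiLCs (adjusted p = 8.63e-04 and 1.23e-06), the second of which passed the fold limit.

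MMSAT4 was higher in both TKO and QKO mES cells than in WT. WT mES libraries ranged from 92.7 to 138 CPM (median 115), TKO libraries had 176, 181, 197 and 184 CPM, QKO libraries had 236, 193, 203 and 212 CPM, and LBRKO libraries had 85.8, 81.8, 87.5 and 69.6 CPM. All TKO and QKO libraries lay above WT and all LBRKO libraries below it. The log2 changes passed the test but not the fold limit, with 0.68 ± 0.12 in TKO (adjusted p = 2.40e-05), 0.87 ± 0.12 in QKO (7.24e-08) and -0.51 ± 0.12 in LBRKO (0.00175). With uniquely mapped reads summed over all copies they were 0.16 in TKO (adjusted p = 0.147), 0.36 in QKO (2.57e-04) and -0.05 in LBRKO (0.727). Over all copies together the test was thus passed in QKO alone. By place, TKO changed by 0.10 ± 0.08 on exon copies (adjusted p = 0.435) and 0.65 ± 0.12 on intron copies (5.41e-05). On copies outside genes TKO changed by 0.50 ± 0.12 (0.00112). Of the TKO intron sum, 1 copy (MMSAT4_dup110) gave 27.1 of 33.2 CPM. LBRKO passed in no place.

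In EpiLCs MMSAT4 reached 239, 187, 169 and 194 CPM in QKO, with a log2 change of 1.34 ± 0.12 (adjusted p = 1.46e-12). The WT EpiLC libraries themselves split by replicate number: replicates 1 to 4 had 98.2, 88.2, 83.8 and 104 CPM and replicates 5 to 8 had 62.7, 64.9, 66.5 and 55.7 CPM, with no overlap between these 2 sets of 4. The sets also differed in depth, and the cause of the split was not tested. Against replicates 1 to 4 alone the log2 change was 1.11 in QKO, 0.16 in TKO and -0.31 in LBRKO, and against replicates 5 to 8 alone it was 1.69, 0.75 and 0.29 (adjusted p = 0.352 for TKO with replicates 1 to 4, and at most 0.0342 for the others). The sign of the LBRKO value and the test of the TKO value thus depended on which WT libraries were used, and TKO (95.6 to 112 CPM) overlapped with WT replicates 1 to 4.

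MurSAT1 rested on few reads. QKO mES libraries held 2, 3, 5 and 3 counts and WT mES libraries 0 to 3, so that the groups overlapped although the family was called (adjusted p = 0.0475). The call was lost without WT mES replicate 1, 2, 4, 5, 6 or 8 or QKO mES replicate 2, 3 or 4 (adjusted p = 0.0538 to 0.160). QKO EpiLC libraries held 18, 30, 23 and 20 counts (0.472 to 0.816 CPM), above all WT EpiLC libraries (0 to 18 counts, 0 to 0.350 CPM), with a log2 change of 1.65 ± 0.52 (adjusted p = 0.00702).

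The other families moved less. CYRA11_Mm changed in QKO by 0.46 ± 0.12 in mES cells and 0.94 ± 0.12 in EpiLCs (adjusted p = 0.00219 and 2.83e-08), ZP3AR by 0.56 ± 0.11 and 0.75 ± 0.11 (9.52e-05 and 5.64e-07), and SYNREP_MM by 0.64 ± 0.38 and 0.74 ± 0.32 (0.170 and 0.0468), all on the log2 scale and all under 2-fold. SYNREP_MM in QKO EpiLCs (2.28, 2.26, 1.23 and 1.63 CPM) overlapped with WT EpiLCs (0.769 to 1.69 CPM) and with TKO EpiLCs (1.64, 1.41, 1.76 and 1.89 CPM).

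**Figure D2:**
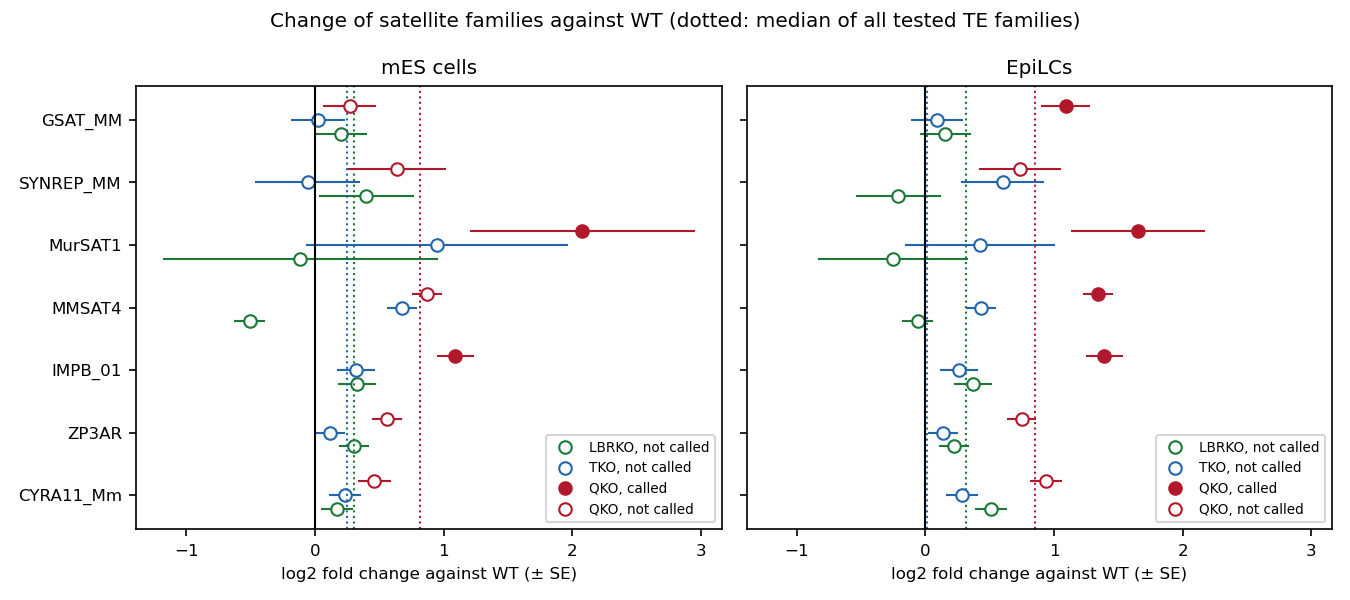
The log2 fold change against WT (points, with SE bars) is plotted for 7 satellite families in LBRKO, TKO and QKO, in mES cells on the left and EpiLCs on the right; filled points were called, and dotted lines mark the median of all tested repeat families in that genotype. The filled points are all QKO, 2 in mES cells and 4 in EpiLCs, and MMSAT4 in LBRKO mES cells lies at -0.51.

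Loss of LBR alone or of the lamins alone was the second question. No satellite family was called in LBRKO mES cells (0.613% of all repeat families and 6.14% of genes were), in TKO mES cells (2.19% and 6.19%), in LBRKO EpiLCs (1.14% and 5.52%) or in TKO EpiLCs (0.963% and 2.8%). By adjusted p alone, MMSAT4 passed in LBRKO and TKO mES cells and in TKO EpiLCs (0.43 ± 0.12, adjusted p = 0.0104), and CYRA11_Mm in LBRKO EpiLCs (0.51 ± 0.12, adjusted p = 0.00175). With uniquely mapped reads summed over all copies none of these 4 passed. MMSAT4 in TKO EpiLCs was then at -0.03 (adjusted p = 0.874) and CYRA11_Mm in LBRKO EpiLCs at 0.11 (0.462). By place, MMSAT4 intron copies passed in TKO mES cells (0.65, adjusted p = 5.41e-05) and in TKO EpiLCs (0.37, adjusted p = 0.0413). MMSAT4 copies outside genes passed in TKO mES cells (0.50, adjusted p = 0.00112). LBRKO EpiLC replicate 3 was the highest of its group in CYRA11_Mm (47.4 CPM against 30.9 to 36.0), ZP3AR (72.8 against 43.8 to 53.8) and IMPB_01 (138 against 67.2 to 88.7), and without it the CYRA11_Mm change was 0.36 (adjusted p = 0.0386). SYNREP_MM split the LBRKO EpiLC libraries into 0.332 and 0.470 CPM in replicates 1 and 2 and 1.65 and 1.34 CPM in replicates 3 and 4.

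Whether LBR matters once lamins are gone was asked with QKO against TKO. In mES cells no satellite family was called (4.47% of repeat families and 5.98% of genes were), and in EpiLCs GSAT_MM and IMPB_01 were called up, 2 of 7 (21.8% of repeat families up, 14.4% of genes in either direction). MMSAT4 in EpiLCs rose by 0.91 ± 0.14 (adjusted p = 1.43e-06) and missed the fold limit, and in mES cells QKO did not differ from TKO beyond its error (0.19 ± 0.14, adjusted p = 0.345). On the log2 scale the QKO change exceeded the sum of the LBRKO and TKO changes for MMSAT4 in mES cells by 0.70 (adjusted p = 0.00515), and in EpiLCs for MMSAT4 by 0.97 (1.15e-04), GSAT_MM by 0.85 (0.0363) and IMPB_01 by 0.76 (0.0112). This sum cannot separate the genes from the lines, because the QKO cells were 1 clone. For MMSAT4 in mES cells it takes in the LBRKO change of -0.51, which was only -0.05 ± 0.08 with uniquely mapped reads. The excess over the sum was not tested with uniquely mapped reads.

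The exit from naive pluripotency was compared in WT cells. SYNREP_MM and MurSAT1 were called up in WT EpiLCs against WT mES cells, 2 of 7 families (2.36% of repeat families up, 30% of genes in either direction). SYNREP_MM went from a median of 0.323 CPM (0.142 to 0.735) to 1.06 CPM (0.769 to 1.69), with no overlap between the 8 libraries of each stage and a log2 change of 1.68 ± 0.30 (adjusted p = 4.69e-06). MurSAT1 went from 0 to 3 counts per library to 0 to 18 counts (adjusted p = 8.85e-05), with overlap. GSAT_MM was higher in EpiLCs by 0.66 ± 0.17 and MMSAT4 lower, with a log2 change of -0.57 ± 0.10 (adjusted p = 5.92e-04 and 3.67e-06), neither over 2-fold. IMPB_01, ZP3AR and CYRA11_Mm differed by at most 0.09 (adjusted p of at least 0.513).

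SYNREP_MM and GSAT_MM followed each other over the libraries. Of all tested repeat families, the 3 whose log2 CPM over 40 libraries was most like that of SYNREP_MM were GSAT_MM (Pearson's r = 0.819), the endogenous retrovirus family RLTR20B4_MM (0.817) and the DNA transposon MamTip1 (0.780), and those most like GSAT_MM were L1MdN_I (0.866), L1M2c (0.848) and LTR65 (0.841). The points share libraries, stage and depth, and the 2 tested SYNREP_MM copies of chromosome 2 lay between 2 GSAT_MM copies, as described for the single copies.

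The reads of most families came from within genes. Uniquely mapped reads, counted copy by copy, lay on exons for 88.1% of MMSAT4, 66.9% of CYRA11_Mm, 44.3% of IMPB_01 and 43.7% of ZP3AR reads, although exon copies were only 4.10% of CYRA11_Mm, 2.43% of IMPB_01 and 8.04% of ZP3AR copies. GSAT_MM reads lay mostly outside genes (69.1%) and SYNREP_MM reads in introns (83.5%). A few copies held most reads of the tandem families: GSAT_MM_dup83, the copy printed first, held 52.3% of the GSAT_MM reads, and 5 copies held 94.2% of the SYNREP_MM reads.

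**Figure D3:**
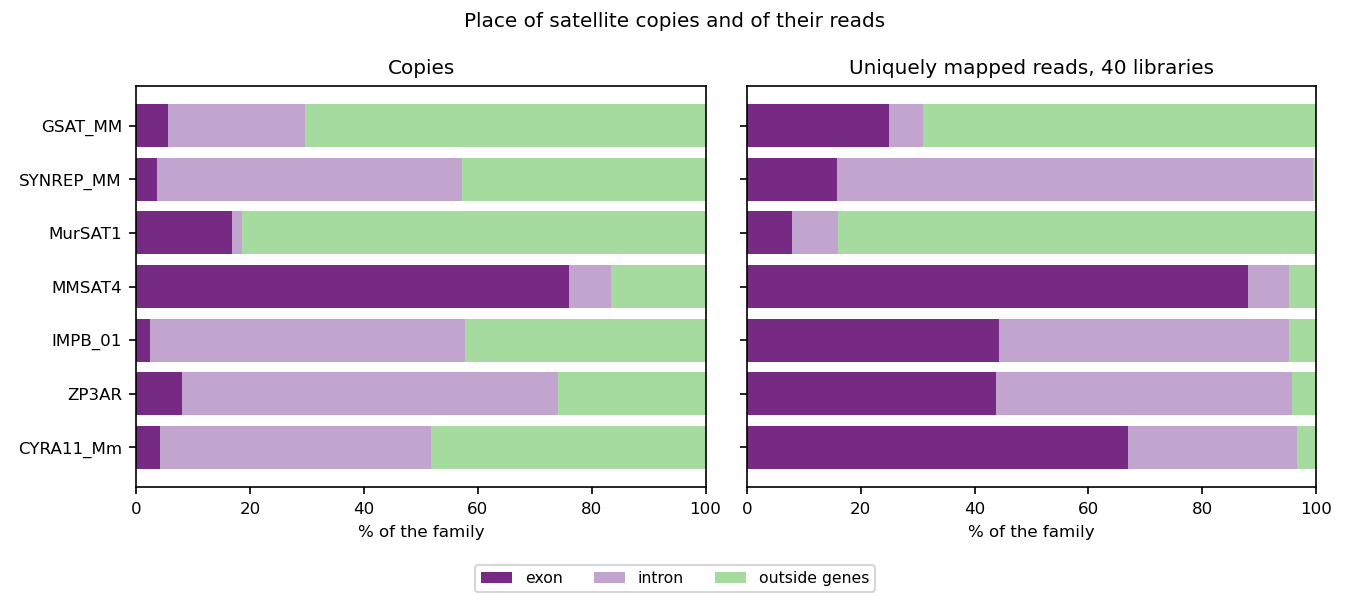
Stacked bars from 0 to 100% give, for 7 satellite families, the share of copies (left) and of uniquely mapped reads over 40 libraries (right) in exons, in introns and outside genes. MMSAT4 has 76.0% of copies and 88.1% of reads in exons, and GSAT_MM 69.1% of reads outside genes.

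The uniquely mapped reads were also summed by where the copies lay. Exon copies of IMPB_01 gave 59.6 ± 7.20 CPM in WT and 59.6 ± 3.58 in QKO mES cells. In EpiLCs they gave 72.4 ± 8.88 and 72.4 ± 1.07, a log2 change of 0.00 ± 0.08 in mES cells and -0.0016 ± 0.08 in EpiLCs. Intron copies went from 56.0 ± 11.8 to 119 ± 19.8 CPM in mES cells and from 60.8 ± 12.2 to 151 ± 18.7 in EpiLCs (log2 change 1.09 ± 0.15 and 1.31 ± 0.15, adjusted p = 1.10e-07 and 9.25e-10), and copies outside genes changed by 1.34 ± 0.14 and 1.14 ± 0.14. The gain of IMPB_01 reads was thus found on intron and intergenic copies and not on exon copies.

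MMSAT4 showed the same order in EpiLCs. Its exon copies changed by 0.44 ± 0.08 (adjusted p = 6.60e-06), its intron copies by 1.56 ± 0.12 (1.68e-14) and its copies outside genes by 1.15 ± 0.12 (4.21e-11). Most of the intron sum was 1 copy, MMSAT4_dup110, which gave 9.32 of 11.5 CPM in WT and 29.0 of 33.8 CPM in QKO EpiLCs. In mES cells exon copies changed by 0.25 ± 0.08 (adjusted p = 0.00926), intron copies by 0.87 ± 0.12 (8.35e-08) and copies outside genes by 1.18 ± 0.11 (1.92e-11). CYRA11_Mm copies outside genes, though at 0.700 ± 0.191 CPM in WT mES cells, rose in TKO (1.48 ± 0.273 CPM) and QKO (2.02 ± 0.260 CPM) mES cells and in TKO (1.70 ± 0.502) and QKO (3.40 ± 0.644) EpiLCs over 0.758 ± 0.387 CPM in WT EpiLCs. GSAT_MM copies outside genes rose in QKO EpiLCs by 1.05 ± 0.17 (adjusted p = 1.14e-06). These sums by place were chosen after the family results were seen.

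Summed over all copies, uniquely mapped reads gave smaller changes than the multimapped table, and 7 of the 10 family calls were lost. In QKO EpiLCs IMPB_01 changed by 0.76, MMSAT4 by 0.55 and GSAT_MM by 0.72 (adjusted p = 5.37e-08, 1.29e-07 and 4.61e-04), all in the same direction but under 2-fold. MurSAT1 in QKO EpiLCs (1.76, adjusted p = 0.00733) and both calls of WT EpiLCs against WT mES cells were kept. The unique table counted 2.11 times as many MMSAT4 reads and 1.39 times as many IMPB_01 reads as the multimapped table, in which, by the usual rule of its counting program, reads on exons are given to genes first.

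Single copies were tested against all tested repeat copies. In QKO mES cells 58 of 491 satellite copies were called up (11.8%) and 18 down (3.67%), against 24.2% up and 1.36% down of all copies. In QKO EpiLCs 108 were called up (22%) and 17 down (3.46%), against 29.3% up and 1.4% down. The satellite shares called up were thus below those of all copies, and the shares called down above them. Of the 491 satellite copies 315 lay in exons, and the comparison was not matched for place. In QKO mES cells exon copies held 22 of the 58 upward and 15 of the 18 downward calls. With the scaling taken from the table of copies itself, the split turned to 16 up and 83 down in QKO mES cells (3.26% and 16.9%, against 6.13% and 5.17% of all copies) and to 41 up and 90 down in QKO EpiLCs (8.35% and 18.3%, against 7.52% and 6.67%). That scaling moved the median log2 change of all copies from 0.77 to 0.08 in mES cells and from 0.81 to 0.05 in EpiLCs, so the balance of upward and downward calls depended on it. The share of satellite copies called down exceeded that of all copies under both scalings, again without matching for place.

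In QKO EpiLCs, where 29.3% of all tested copies were called up and 1.4% down, the satellite calls fell on every place and on most families. Of 315 tested exon copies 45 were called up and 17 down, of 159 intron copies 54 up and 0 down, and of 17 copies outside genes 9 up and 0 down. By family, 38 of 138 IMPB_01 copies, 36 of 201 MMSAT4 copies, 25 of 116 ZP3AR copies, 7 of 27 CYRA11_Mm copies, 2 of 6 GSAT_MM copies and 0 of 3 SYNREP_MM copies were called up. No MurSAT1 copy had enough reads for a test.

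The other comparisons gave the following calls. In LBRKO mES cells 3 were called up and 3 down (0.866% of all copies either way), in TKO mES cells 11 up and 4 down (4.17%), in LBRKO EpiLCs 6 and 6 (1.5%; 3 up without LBRKO EpiLC replicate 3) and in TKO EpiLCs 8 and 4 (2.63%). QKO against TKO gave 14 up and 1 down in mES cells (1.41%) and 69 up and 3 down in EpiLCs (12.6% up and 0.551% down). WT EpiLCs against WT mES cells gave 66 up and 66 down (11% up and 10% down). With the scaling of the copy table, 2 were called up and 7 down in LBRKO mES cells (0.225% and 0.98% of all copies), 10 and 12 in TKO mES cells (2.39% and 1.27%), 5 and 8 in LBRKO EpiLCs (0.938% and 0.501%) and 7 and 8 in TKO EpiLCs (1.87% and 0.818%). QKO against TKO then gave 4 and 5 in mES cells (0.406% and 0.639%) and 15 and 32 in EpiLCs (3.01% and 3.23%), and WT EpiLCs against WT mES cells 53 and 82 (9.35% and 11.7%).

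The major and minor satellite copies with enough reads numbered 9, and 7 of them were called up in WT EpiLCs against WT mES cells (11% of all tested copies were). All 3 SYNREP_MM copies were higher in WT EpiLCs than in WT mES cells, by 2.62 ± 0.55, 2.63 ± 0.71 and 3.12 ± 0.56 on the log2 scale (adjusted p = 9.60e-05, 0.00266 and 4.75e-06). Beside the first pair on chromosome 2 lay GSAT_MM_dup2 (chr2:98492580-98493340), which went from 0.0212 ± 0.0227 to 0.427 ± 0.170 CPM, and GSAT_MM_dup4 (chr2:98496890-98497677, within an exon of Gm75297 on the opposite strand), which went from 0.585 ± 0.202 to 1.81 ± 0.730 CPM. Many of these levels rest on a handful of reads per library. The GSAT_MM and SYNREP_MM copies of chromosome 2 lay together within chr2:98492580-98497677, in exons or introns of Gm75297 or Gm75300. They may share a transcript, which was not tested. The share called up thus counts neighbours that are not independent members.

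In QKO EpiLCs 2 of the 6 tested GSAT_MM copies were called up against WT, a share close to the 29.3% of all tested copies. They were GSAT_MM_dup22 (chr9:3000003-3038414, 0.684 against 0.325 CPM, with overlap) and GSAT_MM_dup42. GSAT_MM_dup83 gave 5.44 ± 0.470 CPM in QKO EpiLCs against 2.87 ± 0.476 in WT and 2.60 ± 0.677 in TKO, with no overlap in either case and a log2 change of 0.92 ± 0.18 against WT (under 2-fold) and 1.06 ± 0.22 against TKO (adjusted p = 3.48e-05 and 3.54e-04). GSAT_MM_dup42 (chr14:3050003-3054022) went from 0.196 ± 0.0853 in WT to 0.840 ± 0.449 CPM in QKO EpiLCs (adjusted p = 8.58e-04, no overlap). GSAT_MM_dup4 was lower in QKO mES cells, 0.159 ± 0.0479 against 0.585 ± 0.202 CPM, by a log2 change of -1.83 ± 0.44 (adjusted p = 0.00101, no overlap).

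Copies near the end of the Y chromosome changed by far more than their family. IMPB_01 had 859 copies on the Y, and 99.8% of their 7993 reads lay on 14 copies within chrY:90746149-90832415, in and near Gm57952 and Erdr1y, on the strand opposite to both genes for the named copies. As the strand setting of the counting is not given, reads of these genes may be counted on the copies. In TKO mES cells Erdr1y itself was at 51.4 CPM against 27.2 in WT, a log2 change of 0.92 ± 0.15. IMPB_01_dup13897 in its intron changed there by 1.94 ± 0.35. These 14 copies summed to 0.695 ± 0.206 CPM in WT, 1.02 ± 0.616 in LBRKO, 3.85 ± 0.547 in TKO and 15.1 ± 3.46 in QKO mES cells. In EpiLCs they summed to 1.20 ± 0.425 CPM in WT, 2.00 ± 0.959 in LBRKO, 5.52 ± 1.94 in TKO and 33.6 ± 12.1 in QKO. QKO, TKO and WT libraries did not overlap at either stage, with the lowest QKO library at 11.2 and the highest TKO library at 4.49 CPM in mES cells, and at 25.0 and 8.43 CPM in EpiLCs.

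The mean was 5.55 times that of WT in TKO and 21.7 times in QKO mES cells, and 4.59 and 27.9 times in EpiLCs. Of 8 tested copies in the window, 7 were called up in TKO mES cells, 8 in QKO mES cells, 6 in TKO EpiLCs and 8 in QKO EpiLCs. Against TKO 5 were called up in QKO mES cells and 8 in QKO EpiLCs. Of all tested repeat copies, 24.2% were called up in QKO mES cells and 29.3% in QKO EpiLCs. In TKO 4.17% and 2.63% were called either way, and against TKO 1.41% either way and 12.6% up. The window was set around the Y copy with the most reads, whose level was highest in QKO. Copies near 0 in WT had enough reads for a test only through mutant libraries. Their upward calls were thus close to fixed in advance, and neighbouring copies are not replicates. The copy shown above, IMPB_01_dup13890, had 0.0247 ± 0.0175 CPM in WT, 1.39 ± 0.462 in TKO and 6.12 ± 2.22 in QKO mES cells. IMPB_01_dup13891, next to it (chrY:90747441-90747701), was at 0 in all WT libraries and at 0.870 ± 0.236 CPM in QKO mES cells and 2.15 ± 1.03 in QKO EpiLCs.

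**Figure D4:**
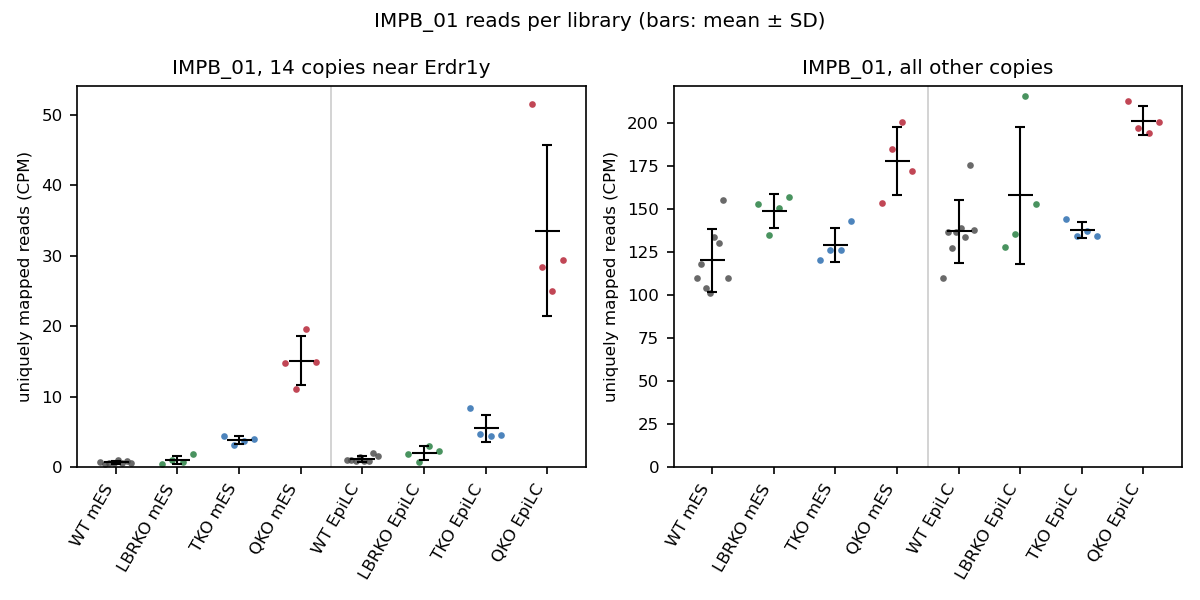
Uniquely mapped IMPB_01 reads in CPM are plotted per library for the 14 copies near Erdr1y on the Y chromosome (left) and for all other IMPB_01 copies (right), on linear axes from 0 with bars for the mean and SD. The 14 copies average 15.1 CPM in QKO mES cells and 33.6 CPM in QKO EpiLCs against 0.695 and 1.20 CPM in WT, and the other copies 178 and 202 CPM against 121 and 137 CPM.

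All other IMPB_01 copies together changed less, with QKO at 1.48 times WT in mES cells and 1.47 times in EpiLCs. The counts of single-copy calls without the 8 Y copies were 4 up and 4 down in TKO mES cells, 2 and 4 in TKO EpiLCs, 50 and 18 in QKO mES cells and 100 and 17 in QKO EpiLCs, so that most upward calls in TKO were these copies. Genes of the Y chromosome moved by less. Ddx3y, Eif2s3y, Kdm5d and Uty, which were chosen after the Y copies were seen, summed to 158 ± 12.2 CPM in WT, 174 ± 13.2 in TKO and 261 ± 9.20 in QKO mES cells. In EpiLCs these sums were 144 ± 17.6, 127 ± 8.93 and 232 ± 10.3 CPM. The loss of the Y chromosome in part of the WT and TKO cells stands beside these values, and its part in them was not tested.

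A CYRA11_Mm copy on chromosome 8 showed a similar order of groups. CYRA11_Mm_dup1560 (chr8:122568997-122569107, 1073 bases from the nearest gene) was at 0 in WT mES cells and at 0.00274 ± 0.00774 CPM in WT EpiLCs, at 0.393 ± 0.0581 and 0.964 ± 0.304 CPM in TKO mES cells and EpiLCs, and at 0.590 ± 0.197 and 1.61 ± 0.345 CPM in QKO mES cells and EpiLCs. No WT library overlapped with these mutant libraries, and in QKO EpiLCs this copy alone gave 1.61 of the 3.40 CPM of CYRA11_Mm outside genes. The copy had enough reads for a test only through TKO and QKO libraries, so its separation from WT is given as a description. The extra chromosome 8 of the TKO line and of a minor population of WT cells stands beside these values, and its part was not tested.

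Copies in exons were compared with the genes that contain them. For 183 tested MMSAT4 copies on the strand of 137 genes, the log2 change of the copy and of its gene had a Pearson's r of 0.86 in QKO against WT EpiLCs and 0.949 in WT EpiLCs against WT mES cells, the highest of 9 comparisons, and between 0.494 (QKO against TKO mES cells) and 0.834 (LBRKO EpiLCs) in the others. The points share reads, because a read on the copy also counts for the gene, and several copies share a gene, so this is given as a description. Of 321 genes with an MMSAT4 copy in an exon, 162 were named Zfp or Zscan, the families of zinc-finger proteins that include many KRAB repressors of transposons, and the copies in them held 73.0% of MMSAT4 reads. Chromosome 4, which carries large clusters of such genes, held 43.6% of MMSAT4 reads on 53 copies.

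**Figure D5:**
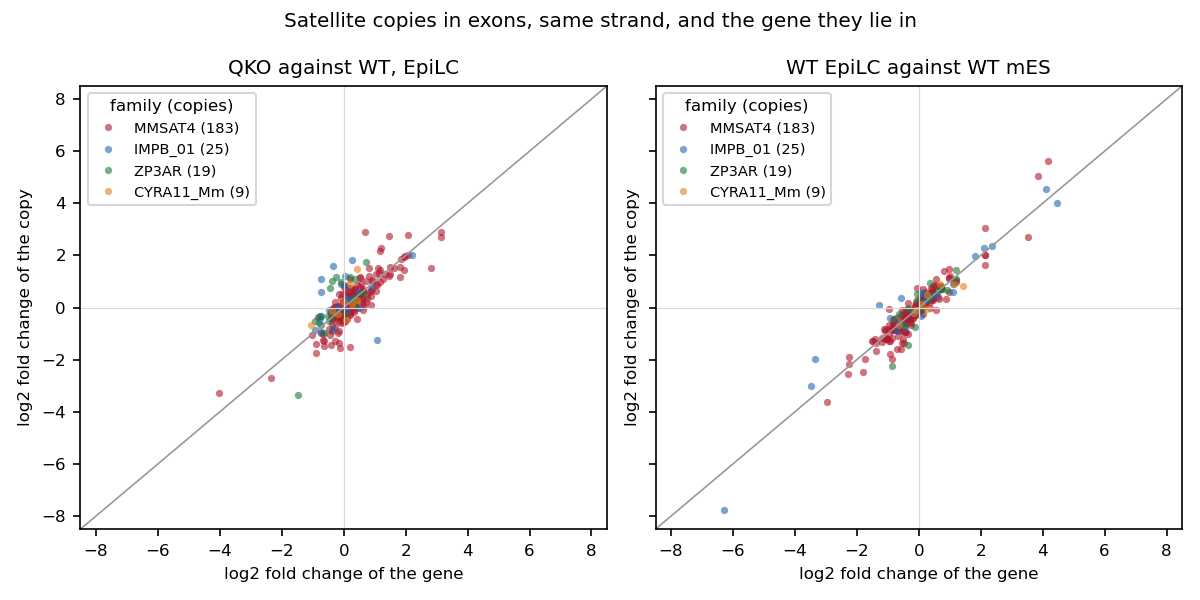
Each point is a tested satellite copy in an exon on the strand of its gene (236 copies of 186 genes), with the log2 fold change of the gene on the x axis and of the copy on the y axis, for QKO against WT EpiLCs (left) and WT EpiLCs against WT mES cells (right); the line marks equal change. Points lie along the line, with a Pearson's r of 0.788 on the left and 0.949 on the right over all families.

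The most read copies differed in their response. MMSAT4_dup95, in an exon of Zfp981 (chr4:146622686-146623151), gave 17.0 ± 2.95 CPM in WT, 11.5 ± 1.23 in LBRKO, 25.0 ± 2.38 in TKO and 29.1 ± 3.08 in QKO mES cells. In EpiLCs it gave 12.1 ± 1.89, 12.8 ± 3.01, 15.8 ± 1.81 and 33.2 ± 3.88 CPM in the same order. MMSAT4_dup110, in an intron of an unnamed gene (chr4:147476592-147476754), averaged 16.6 CPM in WT (11.7 to 21.0) and 30.4 in QKO mES cells (27.4 to 33.1), and 9.32 ± 1.63 and 29.0 ± 4.62 in EpiLCs. MMSAT4_dup79, in an exon of Zfp990 on the same chromosome, stayed between 11.8 and 16.9 CPM in the means of all 8 groups.

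CYRA11_Mm_dup2913, within the coding exons of Baz2a (chr10:127954806-127954899), which encodes the TIP5 subunit of the nucleolar remodelling complex that silences ribosomal genes, held 39.5% of the CYRA11_Mm reads and was higher in WT mES cells (18.7 ± 3.24 CPM) than in WT EpiLCs (11.6 ± 1.94 CPM). IMPB_01_dup22334, opposite to an exon of Lrpprc, a factor for mitochondrial mRNA, had 18.6 ± 3.46 CPM in WT and 10.2 ± 1.05 in QKO EpiLCs. Because the strand setting of the counting is not given, reads on copies opposite to a gene may be reads of that gene.

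In LBRKO mES cells the named copies were those of genes that changed. IMPB_01_dup5983 in Htr5a, a serotonin receptor, changed by 2.03 ± 0.32 and its gene by 2.17 ± 0.31. IMPB_01_dup6898 in Nos1, the neuronal nitric oxide synthase, changed by 1.74 ± 0.38 while its gene went from 69.7 to 212 CPM. MMSAT4_dup402 in Prdm1, a zinc-finger transcriptional repressor, changed by -2.04 ± 0.26 and its gene by -2.19 ± 0.16. In QKO against TKO EpiLCs, MMSAT4_dup559 and MMSAT4_dup560, both in the coding exon of the zinc-finger gene Zfp229, rose by 3.43 ± 0.45 and 3.15 ± 0.40 and the gene went from 18.5 to 120.5 CPM. MMSAT4_dup402 in Prdm1 was also lower in QKO mES cells (-1.46 ± 0.26) and in WT EpiLCs against WT mES cells (-3.62 ± 0.23).

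Not all copies moved with their gene. IMPB_01_dup16559, opposite to an exon of the non-coding gene 1700030C10Rik, was lower in TKO than WT mES cells (0.349 ± 0.160 against 1.68 ± 0.856 CPM, log2 change -2.29 ± 0.37), where the gene was higher by 1.11 ± 0.09. In TKO EpiLCs both were lower, by -3.40 ± 0.48 and -1.96 ± 0.24. ZP3AR_dup2254, in an intron of Ap3d1, rose by 2.62 ± 0.71 in QKO against TKO mES cells (adjusted p = 0.0358) and the gene by 0.48 ± 0.07.

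MMSAT4_dup258, in an exon shared by Zscan4a and Gm74175, marked a difference of the WT EpiLCs. It had 0.651 ± 0.217 CPM in WT EpiLCs, 0.0161 ± 0.0202 in LBRKO, 0.0721 ± 0.0242 in TKO and 0.0360 ± 0.0720 in QKO EpiLCs, with no overlap between WT and any mutant. Zscan4 genes mark a 2-cell-like state and are near-identical copies of each other, so their reads are uncertain. The marker genes of that state (6 genes) summed to between 8.20 and 13.3 CPM in WT EpiLCs, to at most 1.19 in LBRKO, 3.07 in TKO and 2.43 CPM in QKO EpiLCs, and their part in this copy's change was not tested.

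Genes that act on satellite chromatin were followed as well. Of a list of 58 factors of pericentromeric heterochromatin and the centromere, all tested, which included the targeted genes, 1 was called up and 0 down in LBRKO mES cells, 1 up and 3 down in TKO mES cells, 1 up and 4 down in QKO mES cells, 1 up and 0 down in LBRKO EpiLCs, 0 up and 2 down in TKO EpiLCs and 1 up and 2 down in QKO EpiLCs. Of all tested genes 6.14%, 6.19%, 15.8%, 5.52%, 2.8% and 19.8% were called in either direction in these comparisons, in the same order. The downward calls were lamin genes and, in QKO mES cells, Hmga1, an AT-hook protein of chromatin (578 ± 43.1 to 236 ± 23.7 CPM, log2 change -1.29 ± 0.09). Each upward call was Dnmt3l, the cofactor of the de novo DNA methyltransferases, which had 19.6 ± 3.94 CPM in WT mES cells, 140 ± 4.10 in LBRKO, 47.8 ± 3.60 in TKO and 90.7 ± 5.91 in QKO, and 121.8 ± 13.7 in WT EpiLCs, 532 ± 70.6 in LBRKO and 518 ± 35.2 in QKO.

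No gene for an H3K9 methyltransferase, an HP1 protein, Atrx, Daxx, Dnmt1, Uhrf1, Cenpa or Cenpb was called in any mutant. In QKO against TKO no list gene was called in mES cells, and 2 were called up in EpiLCs, Dnmt3l by 1.25 ± 0.12 and Lmnb1, which was at 0.718 and 1.55 CPM. In WT EpiLCs against WT mES cells 4 were called up, Dnmt3a (4.02 ± 0.07), Dnmt3b (4.31 ± 0.09), Dnmt3l (2.63 ± 0.09) and the H3K9 demethylase Kdm4c (1.28 ± 0.04), and 2 down, the deacetylase Sirt6 (-1.52 ± 0.08) and Lmna (-2.37 ± 0.08), where 30% of all tested genes were called.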

How the data were processed

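Total RNA of 40 mouse mES cell and EpiLC libraries was sequenced. Per the labels and the study's methods, the authors trimmed reads with cutadapt 2.5, aligned them with STAR 2.7.10a to GRCm39 (with SAMtools 1.10 in their notes), counted genes with featureCounts 1.6.4 and repeats with TEtranscripts, and deposited raw counts: genes, genes with repeat families (reads with up to 100 positions) and single repeat copies (uniquely mapped reads). The strand setting of the counting is not given in the sources used here. No column lacked a sample.

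Families and genes were tested in 1 edgeR 4.0.16 quasi-likelihood fit (R 4.3.3, TMM, filterByExpr with a minimum count of 10, 8 group means, 26508 features, Benjamini-Hochberg). Single copies (131824) were tested likewise with the scaling of the gene table. Shares were compared with exact permutation tests. Groups came from the labels. Copies were placed by the GENCODE M39 annotation of GRCm39, which held 98.7% of the 56748 gene IDs. Sequences were read from GRCm39. On simulated data, 98% of 4-fold and 86% of 2.5-fold rises were called for families in QKO against WT mES cells (26508 features), and 58% and 16% for copies (131824 copies). For falls of the same sizes the shares were 86% and 56% for families and 18% and 0% for copies.

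Named were all families, the targeted genes, called genes of the factor list and the 5 most read copies. Per comparison, up to 3 copies with the highest and 3 with the lowest change were also picked, among those called, without overlap and with at least 0.5 CPM in 1 group. Only some of these picked copies are described in the text, and no rule set which. Other copies and genes named were tested GSAT_MM and SYNREP_MM copies, or were chosen after their values were seen. The members and lists were chosen with earlier results of these data known. Alternatives were RLE scaling, no or other count minimums, subsets of the WT replicates, 2-group fits, unique reads, DESeq2 1.42.0, a replicate block and leaving out each library; sums by place of the copy and counts without the Y copies were added after the data were seen.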

Additional observations from a re-analysis of the deposited data

Results flagged for a closer look

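Of 64 groups of libraries looked at family by family, 4 had 1 library far from the rest, and chance alone gives about 1 in 20. In WT mES cells replicate 7 was the highest of 8 libraries for CYRA11_Mm (32.19 CPM, next 26.8), SYNREP_MM (0.7354 CPM, next 0.3798) and ZP3AR (59.13 CPM, next 46.47). The same library had the highest level of L2 and MIR reads far from genes in its group, 3.78 CPM. In TKO EpiLCs replicate 1 had 93.28 CPM of IMPB_01 (next 81.05).

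In 7 of 35 tests a change differed between stages or from the sum of the single changes, at an adjusted p under 0.05 in edgeR's quasi-likelihood test. The QKO change was larger in EpiLCs than in mES cells for CYRA11_Mm (log2 difference 0.4758), GSAT_MM (0.8192) and MMSAT4 (0.4702). It exceeded the sum of the LBRKO and TKO changes for MMSAT4 in mES cells (0.7006) and, in EpiLCs, for GSAT_MM (0.8454), IMPB_01 (0.7615) and MMSAT4 (0.9652). The MMSAT4 value in mES cells takes in the LBRKO change of -0.51, which was -0.05 with uniquely mapped reads. No explanation of these differences was tested.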

How the results depend on the processing

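Among the 63 family results and the 47 results of copies picked per comparison, described in the text or not, no called change turned direction under the alternatives run. Scaling by gene counts alone changed no family call, and DESeq2 lost 1 of 10. QKO against WT mES cells, with 2 families called, gave 1 with no filter on low counts, with WT replicates 1 to 4, with 2 groups in the fit, with the replicate block and with intron copies alone, 0 with WT replicates 5 to 8 or unique reads, and 1 to 2 when 1 library was left out. The call lost was MurSAT1, and with WT replicates 5 to 8 or unique reads IMPB_01 was lost as well. Exon copies alone gave 1, which was GSAT_MM called down (-1.29), with neither upward call kept. QKO against WT EpiLCs (4) gave 1 with unique reads, 0 with exon and 2 with intron copies, and 3 to 5 when 1 library was left out. QKO against TKO EpiLCs (2) gave 1 with RLE scaling, no filter or DESeq2, 0 with unique reads or exon copies, and 1 to 3 when 1 library was left out (1, with GSAT_MM lost, without TKO EpiLC replicate 1 or QKO EpiLC replicate 1). WT EpiLCs against WT mES cells (2) gave 1 with 2 groups in the fit, with intron copies and with copies outside genes. Copies outside genes gave 1 in TKO mES cells and 1 in TKO EpiLCs (0 in both otherwise), and exon copies 1 in QKO against TKO mES cells (0 otherwise), GSAT_MM called down (-1.36).

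The satellite share in TKO against WT mES cells was higher by 0.006372 percentage points with unique reads (exact permutation, adjusted p = 0.131), 0.002628 without MMSAT4 (0.127), and 0.009608 and 0.009838 with WT replicates 1 to 4 and 5 to 8 (0.0514, below which 4 against 4 libraries cannot go). With the same WT subsets QKO was higher by 0.02091 and 0.02114 in mES cells and 0.02916 and 0.03179 in EpiLCs (0.0514 each). Leaving out 1 library gave 0.0038 to 0.005103 for TKO against WT EpiLCs (adjusted p = 0.0367 to 0.133) and -0.003885 to -0.002385 for WT EpiLCs against WT mES cells (0.0367 to 0.162); in both, the lower p came without WT EpiLC replicate 4 or 7.

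For single copies, calls up and down together went to 0 among copies 10 kb or more from genes in LBRKO mES cells (6 before), TKO mES cells (15), QKO mES cells (76), LBRKO EpiLCs (12), TKO EpiLCs (12) and QKO against TKO mES cells (15), and to 1 in QKO EpiLCs (125), QKO against TKO EpiLCs (72) and WT EpiLCs against WT mES cells (132), since only 5 copies so far out were tested. WT replicates 1 to 4 gave 15 and the replicate block 21 in LBRKO mES cells, and WT replicates 5 to 8 gave 25 in TKO mES cells. A minimum count of 20 gave 40 in QKO mES cells, 82 in QKO EpiLCs and 76 for WT EpiLCs against WT mES cells, where a minimum of 5 gave 201. Scaling by the table of copies gave 9 for QKO against TKO mES cells and 47 for EpiLCs, and leaving out 1 library gave 8 to 15 (8 without TKO mES replicate 3, 9 without replicate 4) and 48 to 63. The cause of these shifts was not tested. The replicate block kept 61 of 63 family results. Same-numbered libraries did not deviate together in all pairs (lowest r of 0.009 in WT and -0.212 in LBRKO), so the numbers were not taken as pairs. Precision is limited by depth for MurSAT1 and SYNREP_MM, at most 30 and 95 counts per library, and counts hold no read with over 100 positions.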
